A study of Mus musculus with 12 samples.

Results

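Here 3 microRNA hairpins, miR-149, miR-345 and miR-1224, were described in the blood and colon of mice with DSS colitis. The 5 members are the rows mmu-mir-149-5p, mmu-mir-149-3p, mmu-mir-345-5p, mmu-mir-345-3p and mmu-mir-1224-5p, out of 1978 rows of the count table, of which 1405 held at least 1 count. They were selected on their measured response to DSS, which the rule gives as higher in blood than in colon, so that response is given below as a description and without a test. The few counts of miR-149-3p do not show this. Small RNA was sequenced from whole blood and colon of the same 6 male C57BL/6 mice, giving 12 libraries. DSS (dextran sulfate sodium) injures the colon epithelium, and 3 mice drank water with 1.5% DSS (wt/vol) over 7 days and were killed on day 8. The other 3 mice were controls without DSS, and no allele or transgene is named for either group. DSS colitis is an acute chemical injury model.

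The grouping of the mice needs care. The DSS mice were taken to be mice 1, 7 and 9, with 2, 4 and 8 the controls, as the rule that chose the members and the library names in the study's heatmaps have it. The sample labels mark mice 1, 2 and 4 as diseased and mice 7, 8 and 9 as controls, and their tissue and source fields name opposite tissues. Each statement about DSS below holds for the first grouping, and the fitted values under the second are printed beside those they change. The tissue of each library was read from its name, and the levels of known tissue miRNAs were compared with it. miR-486a-5p, an erythroid miRNA, lay between 429792 and 644818 CPM (counts scaled by library size) in the blood libraries and between 1082 and 1619 in the colon libraries. miR-143-3p, a smooth muscle miRNA, lay between 192295 and 270826 CPM in colon and between 193 and 539 CPM in blood. Total counts were 21127134 to 32944792 in blood and 15060553 to 20106226 in colon, and miR-486a-5p with the identical miR-486b-5p held 74.7% to 83.0% of the counts in blood.

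A miRNA is cut from a hairpin whose arms give a 5p and a 3p strand, and the strand loaded into an Argonaute protein pairs with messenger RNAs mainly through its seed, bases 2 to 8. Strands of one hairpin have different seeds and so different targets, and usually one strand is much the more abundant. Blood small RNA is mostly that of red cells, whereas the colon holds epithelium, muscle, stroma and immune cells. miR-149-5p has been described as a repressor of MyD88, an adaptor of Toll-like receptor signaling, and miR-1224-5p as a repressor of Sp1, a transcription factor.

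The mature sequences are shown because the seeds decide whether the members can share targets, with bases 2 to 8 in capitals. They stand in the deposited tables and are identical in RefSeq (GRCm38.p6).
miR-149-5p: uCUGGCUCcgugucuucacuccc
miR-149-3p: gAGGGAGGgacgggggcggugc
miR-345-5p: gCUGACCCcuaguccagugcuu
miR-345-3p: cCUGAACUaggggucuggagac
miR-1224-5p: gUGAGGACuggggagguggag
miR-1224-3p: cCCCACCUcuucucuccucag

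No seed was shared between members. Only the seed of miR-149-3p occurred in other rows among the 1898 rows with a sequence. These were 3 miRNAs with the same capitals, which are shown for comparison.
miR-1943-5p: aAGGGAGGaucugggcaccugga
miR-6967-5p: cAGGGAGGgauaaagaccagu
miR-7016-5p: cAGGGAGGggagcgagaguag

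miR-6967-5p was counted 304 times in all blood libraries and 1 time in colon, where its log2 response to DSS in blood was -0.04. miR-1943-5p was counted 344 times in colon, with a log2 response there of 0.07. miR-7016-5p had 17 counts in blood and 15 in colon. Among the 1898 rows with a sequence, each member differed from its nearest other sequence by at least 6 edits, and miR-1224-3p by 5. So no near-identical copy among these rows could take reads from a member. Rows without a sequence were not compared. The members were rich in G and C, with 60.9% for miR-149-5p, 59.1% for each miR-345 strand, 66.7% for miR-1224-5p and 81.8% for miR-149-3p. The median over the miRNAs tested was 50.0% in blood and 47.8% in colon.

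The hairpins are shown with both mature strands in capitals, because the place of the strands and of the hairpin in its host gene differs among them.
Mir149: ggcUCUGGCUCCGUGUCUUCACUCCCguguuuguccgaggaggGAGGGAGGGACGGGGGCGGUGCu
Mir345: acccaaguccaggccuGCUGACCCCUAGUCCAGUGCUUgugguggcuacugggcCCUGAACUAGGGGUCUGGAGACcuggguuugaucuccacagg
Mir1224: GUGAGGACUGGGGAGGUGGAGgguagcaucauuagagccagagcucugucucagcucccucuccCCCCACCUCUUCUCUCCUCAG

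All 3 hairpins lie on the plus strand of GRCm38, inside and in the direction of a protein-coding gene of GENCODE. Mir149 (chr1:92850378-92850443) lies in intron 1 of Gpc1, a heparan sulfate proteoglycan of the cell surface. That intron is 21249 bases long and the hairpin starts 18280 bases into it. Mir345 (chr12:108836973-108837068) overlaps non-coding transcripts of Slc25a47, a mitochondrial carrier gene. It is intronic in 2 of them and overlaps an exon in 1, and the shorter intron is 848 bases long. Mir1224 (chr16:20604452-20604536) fills an intron of Vwa5b2 from its first to its last base, 85 bases, in all 4 transcripts that span it. A hairpin of this kind is called a mirtron, because splicing and not the Drosha enzyme releases its ends.

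**Figure D1:**
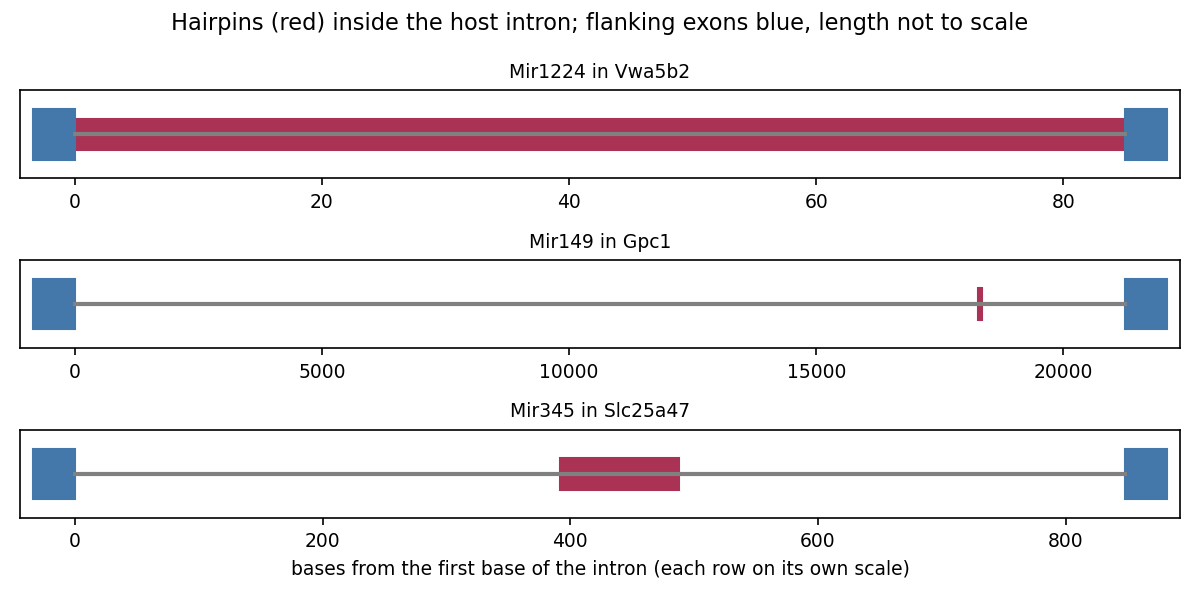
Position of each hairpin (red) inside its host intron (grey), in bases from the first base of the intron, with each row on its own scale and the flanking exons (blue) not to scale. For Mir345 the shorter of the 2 introns is drawn. Mir1224 covers the whole of its 85-base intron, whereas Mir149 is a small part of a 21249-base intron.

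miR-149-5p was the member with the highest level in colon. Counts in blood were 1131, 685 and 470 in DSS mice 1, 7 and 9 and 227, 146 and 270 in control mice 2, 4 and 8. After TMM scaling within the tissue these were 28.5, 22.1 and 21.7 CPM against 10.2, 8.40 and 9.16 CPM. Every DSS mouse lay above every control mouse in blood, with means of 24.1 ± 3.80 and 9.25 ± 0.901 CPM (SD, n = 3 each). The log2 fold change was 1.38 (SE 0.23), a 2.60-fold higher level, and 1 of the 484 miRNAs tested in blood had a higher value. In colon the level was higher and the response smaller. The DSS mice had 99.7, 122 and 132 CPM and the controls 94.3, 103 and 91.6 CPM, so the groups overlapped at mouse 1. The log2 fold change in colon was 0.30 (SE 0.15). Under the grouping of the labels the log2 fold change of miR-149-5p was -0.16 in blood and -0.22 in colon. The sign in blood thus depended on the grouping. In blood, the 2 platelet and endothelial miRNAs of the marker lists held 0.00127% to 0.00217% of counts in DSS mice and 0.00227% to 0.00509% in controls. For miR-122-5p of liver these were 0.000653% to 0.001403% and 0.001412% to 0.01404%, lower in DSS mice by a very narrow gap. The other 6 lists overlapped, erythroid miRNAs among them at 78.66% to 83.6% and 78.65% to 85.9%. The part of these lists in the level of miR-149-5p was not tested.

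miR-149-3p, the other strand, was close to absent. It had 2, 0 and 0 counts in the blood of DSS mice and 0, 0 and 1 in controls, and 5, 4 and 19 counts in the colon of DSS mice against 4, 3 and 3. It passed the filter on low counts in neither tissue. The colon level averaged 0.440 ± 0.265 CPM after DSS and 0.212 ± 0.0475 CPM without it (SD, n = 3 each), and 19 of the 28 counts in DSS mice came from mouse 9. The ratio of the summed counts in blood, 2 against 1 and scaled by total counts, was 1.75 with an exact 95% interval of 0.0909 to 103. In colon, 28 against 10, it was 2.75 (1.29 to 6.33). The blood interval holds the whole colon interval, so the counts cannot say in which tissue the ratio was higher. These intervals cover counting error within the pooled counts and not the spread between mice, and are no test of the response.

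miR-345-5p is the less abundant strand of its hairpin. Counts in blood were 267, 70 and 54 in DSS mice 1, 7 and 9 and 38, 22 and 47 in control mice 2, 4 and 8, or 6.72, 2.26 and 2.49 CPM against 1.71, 1.27 and 1.59 CPM. The DSS mice lay above the controls, and mouse 1 lay far above the other DSS mice. The log2 fold change was 1.33 (SE 0.44), and 0.68 without mouse 1. In colon the direction was opposite, with 2.87, 2.31 and 1.63 CPM in DSS mice and 4.20, 2.84 and 4.89 CPM in controls. The groups overlapped there at DSS mouse 1 and control mouse 4, and the log2 fold change was -0.82 (SE 0.31). Under the grouping of the labels these values were 0.64 in blood and 0.18 in colon.

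miR-345-3p, the abundant strand, did not follow its partner in blood. It had 22.5, 17.9 and 17.8 CPM in DSS mice and 16.7, 18.0 and 20.7 CPM in controls, and the groups overlapped. The log2 fold change was 0.07 (SE 0.22). In colon it had 49.9, 38.5 and 45.4 CPM in DSS mice and 64.1, 61.4 and 49.8 CPM in controls, with an overlap at DSS mouse 1 and control mouse 8 and a log2 fold change of -0.39 (SE 0.17). Which tissue held more of the gap between these responses depended on the scaling, since with total counts the values were 0.30 in blood and -0.18 in colon. The labels' grouping gave 0.02 in blood and 0.39 in colon.

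miR-1224-5p was a colon miRNA that was hardly counted in blood. The blood of DSS mice 1, 7 and 9 held 10, 1 and 4 counts and that of control mice 2, 4 and 8 held 0, 0 and 1, too few to pass the filter. The summed counts were 15 against 1, a ratio of 13.1 after scaling by total counts, with an exact 95% counting interval of 2.01 to 551. Of the 15 counts, 10 came from mouse 1, and without it 5 against 1 gave a ratio of 6.78 (0.759 to 321), a value added after seeing the data. Like the ratios of miR-149-3p these are no test of the response. In colon the DSS mice had 8.96, 10.5 and 8.05 CPM and the controls 16.5, 13.7 and 14.5 CPM. Every DSS mouse was below every control mouse, with means of 9.16 ± 1.23 and 14.9 ± 1.46 CPM (SD, n = 3 each) and a log2 fold change of -0.70 (SE 0.17). The labels' grouping turned this to 0.25. The 9 gut epithelial miRNAs of a marker list were also lower in sum, with 7.15% to 12.6% of counts in the colon of DSS mice and 15.9% to 19.1% in controls. Grouped by the labels they held 12.6% to 19.1% in diseased mice and 7.15% to 16.3% in controls. Lists of platelet and endothelial miRNAs (0.680% to 0.882% against 0.454% to 0.544%) and of enteroendocrine and neural miRNAs (0.383% to 0.510% against 0.256% to 0.341%) lay apart in the other direction in colon, and the other 5 lists overlapped. The part of these sums in the level of miR-1224-5p was not tested, and fewer cells of a type and less RNA per cell cannot be told apart in bulk tissue.

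**Figure D2:**
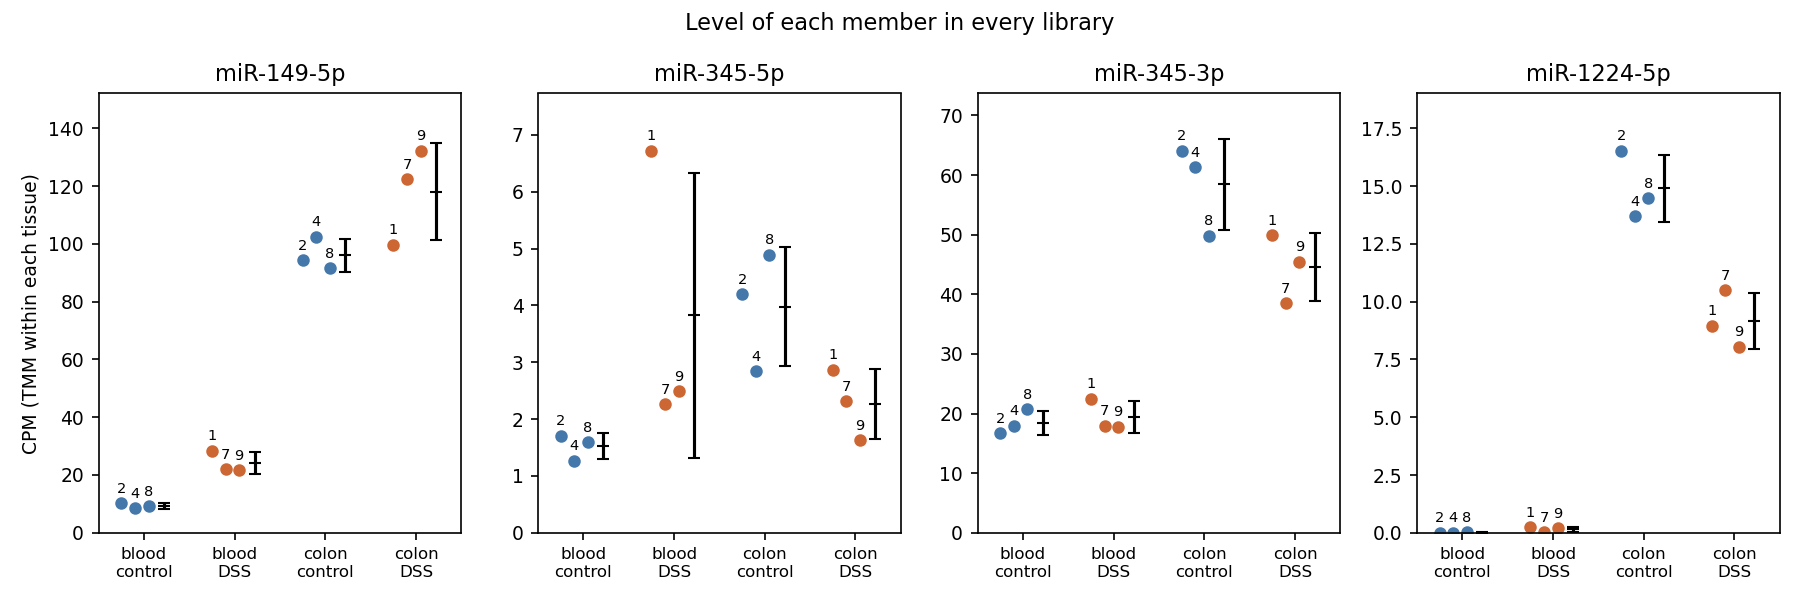
CPM (TMM within each tissue) of the 4 members other than miR-149-3p in every library, with mouse numbers beside the points and mean ± SD (n = 3) as bars. In blood, miR-149-5p lies at 21.7 to 28.5 CPM in DSS mice and 8.40 to 10.2 CPM in controls, and mouse 1 alone carries most of the spread of miR-345-5p.

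The members differed in their values in each tissue. In blood, 2 of the 3 members that passed the filter, miR-149-5p and miR-345-5p, had every DSS mouse above every control mouse. Over all 484 miRNAs tested in blood, 7.44% lay apart in this direction and 9.92% in the other. In colon, 1 of 4 members that passed, miR-1224-5p, had every DSS mouse below every control mouse, where 16.1% of 542 miRNAs lay apart lower and 22.5% higher. The rule used these contrasts, so nothing is read from the counts. The median log2 fold change over all tested was -0.05 in blood and 0.04 in colon.

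Put side by side in 1 fit of the 12 libraries, the log2 response in blood minus that in colon was 1.43 (SE 0.42) for miR-149-5p, 2.54 (SE 0.68) for miR-345-5p and 0.80 (SE 0.43) for miR-345-3p. The median over all tested miRNAs in this fit was 0.22, so the values stand 1.21, 2.32 and 0.58 above it. With the mouse as a replicate block the differences were 1.40, 2.29 and 0.79. Under the grouping of the labels they were 0.12, 0.57 and -0.46, so that of miR-345-3p changed sign. With RLE factors those of miR-149-5p and miR-345-3p were 0.99 and 0.36, where the median over all tested miRNAs was -0.18 and not 0.22. Within the TMM fit of the 12 libraries the blood response was 1.69 and the colon response 0.26 for miR-149-5p. For miR-345-5p they were 1.68 and -0.86, and for miR-345-3p 0.36 and -0.44. The same fit gave 4.11 (SE 1.01) for miR-1224-5p, which is not read further because it rests on 16 blood counts and on the prior count. miR-149-3p failed the filter.

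**Figure D3:**
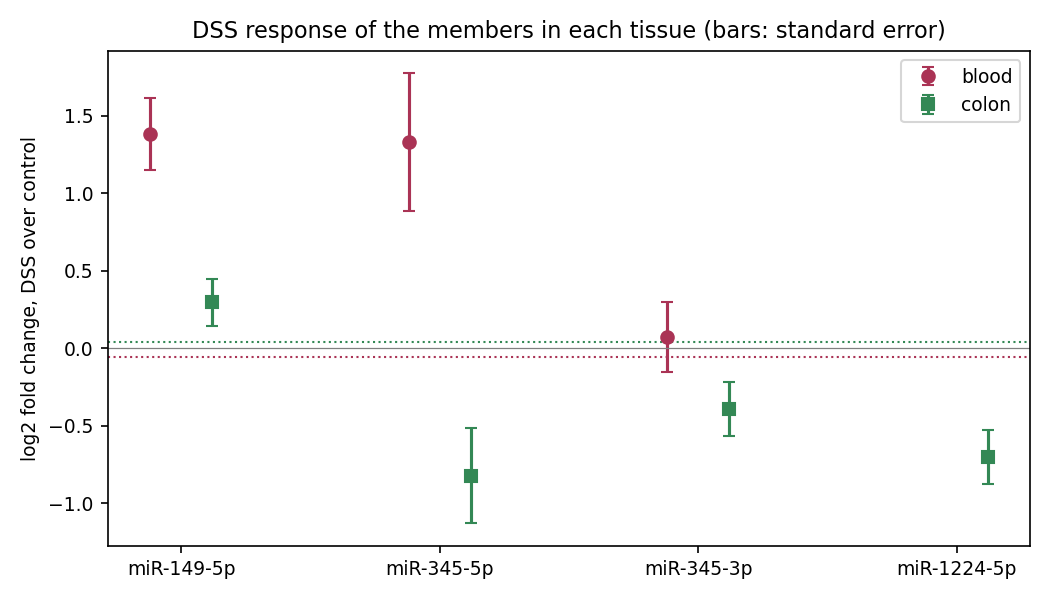
Log2 fold change of DSS over control mice in blood (circles) and colon (squares), with the standard error of the edgeR fit as bars and the median of all tested miRNAs in each tissue as dotted lines. miR-149-5p stands at 1.38 in blood and 0.30 in colon, and miR-345-3p at 0.07 and -0.39. miR-1224-5p has no blood value.

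The level of the members between the tissues, averaged over DSS and control mice, was not used to choose them and was compared with edgeR over 680 miRNAs. Of the 4 members tested, 3 passed an adjusted p limit of 0.05 with more than a 1.5-fold difference, and all 3 were lower in blood. One of them, miR-1224-5p, passed the filter only through colon, so its call was set by the filter and is not counted as a result, and miR-149-5p and miR-345-3p remain. The background was high, with 88.7% of all tested miRNAs called and 51% called lower in blood. So the count says nothing particular about the members.

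miR-149-5p had 8.77 to 47.3 CPM in the 6 blood libraries, with a median of 18.8, and 70.8 to 99.99 CPM in the 6 colon libraries, with a median of 77.7, when all 12 were scaled together by TMM. On this scale the tissues did not overlap. It was 4.19-fold lower in blood, with a log2 difference of -2.07 (SE 0.22, edgeR quasi-likelihood test, Benjamini-Hochberg adjusted p = 2.3e-07), lower in each of the 6 mice. The size depended on the scaling, from -0.64 with totals without miR-486 and -0.88 with upper-quartile factors to -2.81 with total counts. In the first 2 of these the tissues overlapped and 5 of 6 mice were lower in blood, and mouse 1 was higher in blood, at 158 against 92.6 CPM with totals without miR-486. In blood miR-1224-5p ranged from 0 to 0.419 CPM, and in colon from 6.09 to 13.2 CPM. The tissues did not overlap. Its fitted log2 difference of -6.93 (SE 0.43) is given as a description, since it rests on 16 blood counts and depends on the prior count.

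With all 12 libraries scaled by TMM, each strand of miR-345 overlapped between the tissues. In blood miR-345-3p ranged from 18.3 to 37.4 CPM, against 29.9 to 51.0 CPM in colon, and its log2 difference was -0.66 (SE 0.22, edgeR adjusted p = 0.0103). Within mice it was lower in blood in 6 of 6 with TMM, RLE or total counts. With upper-quartile factors or totals without miR-486 it was lower in 1 of 6. The call was lost with RLE factors (-0.55, edgeR adjusted p = 0.00449) and without mouse 9 (-0.58, edgeR adjusted p = 0.0347), where only the 1.5-fold limit was missed. Without mouse 2 (-0.58, edgeR adjusted p = 0.0506) and with at least 10 counts in every library (-0.19, edgeR adjusted p = 0.392) both limits were missed. The difference was larger with total counts (-1.39, edgeR adjusted p = 7.2e-05) and without mouse 8 (-0.99). With totals without miR-486 miR-345-3p was called higher in blood (0.78, edgeR adjusted p = 0.00226). The blood range of miR-345-5p was 1.32 to 11.2 CPM and its colon range 1.23 to 3.78 CPM, again with overlap. In control mice 2, 4 and 8 it was lower in blood, at 1.87, 1.32 and 2.25 against 3.34, 2.23 and 3.78 CPM. In DSS mice 1, 7 and 9 it was higher in blood, at 11.2, 3.47 and 2.82 against 2.16, 1.80 and 1.23 CPM. With this scaling the average over both groups joins opposite directions and describes neither. The averaged log2 difference of miR-345-5p, 0.50 (SE 0.34, edgeR adjusted p = 0.174), did not pass, and was 0.14 without mouse 1. It passed as higher in blood with upper-quartile factors (1.65, edgeR adjusted p = 8.6e-05), with totals without miR-486 (1.94, edgeR adjusted p = 1.9e-05) and with at least 10 counts in every library (0.97, edgeR adjusted p = 0.0222). A missed threshold does not show equal levels.

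These differences turn on the scaling of the libraries. The median of all tested miRNAs moved from -1.59 with total counts to 0.58 with totals without miR-486, and was -0.86 with TMM. miR-345-3p was 0.53 with upper-quartile factors and 0.78 with totals without miR-486, the opposite direction, and miR-345-5p was -0.20 with total counts. A scaling moves all miRNAs nearly alike, so distances to that median hardly change by construction and are given as the scale-free values. With TMM the distance to that median was -1.21 for miR-149-5p, 1.35 for miR-345-5p, 0.20 for miR-345-3p and -6.08 for miR-1224-5p. The fitted difference of miR-149-5p was below 0 under all 5 scalings.

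**Figure D4:**
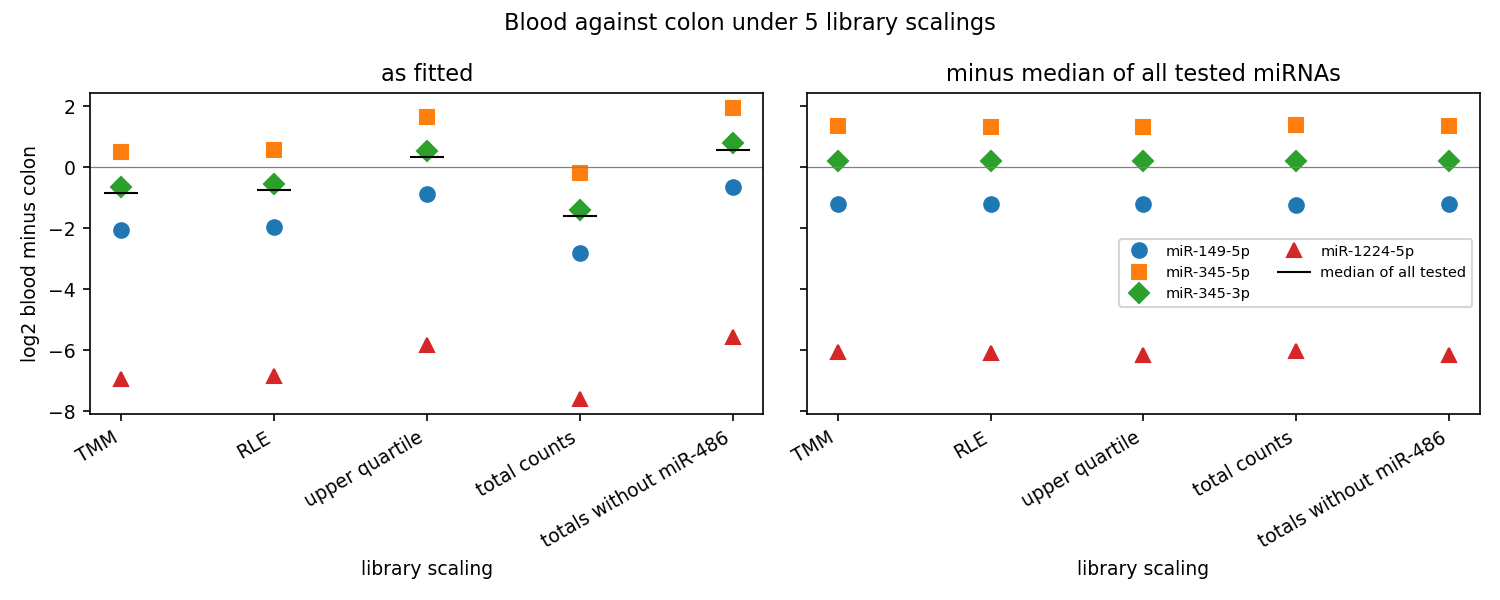
Log2 blood minus colon of 4 members under 5 library scalings, as fitted (left, with the median of all tested miRNAs as a black dash) and after that median was subtracted (right). The fitted values shift together, and miR-345-3p crosses 0, while on the right, where the shared shift is removed by construction, miR-149-5p lies at -1.21 and miR-345-5p at 1.35 with TMM.

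The strands of a hairpin come from one precursor, so their ratio within a library does not depend on scaling. miR-345-5p made up 6.59% to 23.0% of both strands in blood, with a median of 10.2%, and 3.45% to 8.93% in colon, with a median of 5.55%. The 5p to 3p ratio was 2.07-fold higher in blood, with a mean log2 ratio of -3.04 ± 0.738 against -4.09 ± 0.485 (SD, n = 6 each, exact permutation test, two-sided, p = 0.0130, adjusted over 3 hairpins 0.0195). It was higher in blood in 5 of 6 mice. The gap lay mostly in the DSS mice, whose responses chose the member, so this test is not independent of the choice and nothing is read from it. Paired within mice, an exact sign-flip test had p = 0.0625, adjusted 0.0938, where the smallest p it can give is 0.0312, so the call was lost in the replicate block. The adjusted p was also over the limit without mouse 1, 2, 7 or 9, at log2 differences of 0.79, 1.13, 1.05 and 0.87.

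The shares of miR-345-5p were also set side by side within each group of mice. In controls the 5p share was 6.59% to 9.27% in blood and 4.42% to 8.93% in colon, which overlapped. In DSS mice it was 11.2% to 23.0% in blood and 3.45% to 5.67% in colon, which did not. The mean log2 ratio was -3.56 in blood and -3.88 in colon of controls, and -2.51 and -4.29 in DSS mice. Under the grouping of the labels it was -2.92 and -4.13 in diseased mice and -3.15 and -4.04 in controls. Whether the gap differed between the groups was not tested, since it is built from the response that chose the members.

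**Figure D5:**
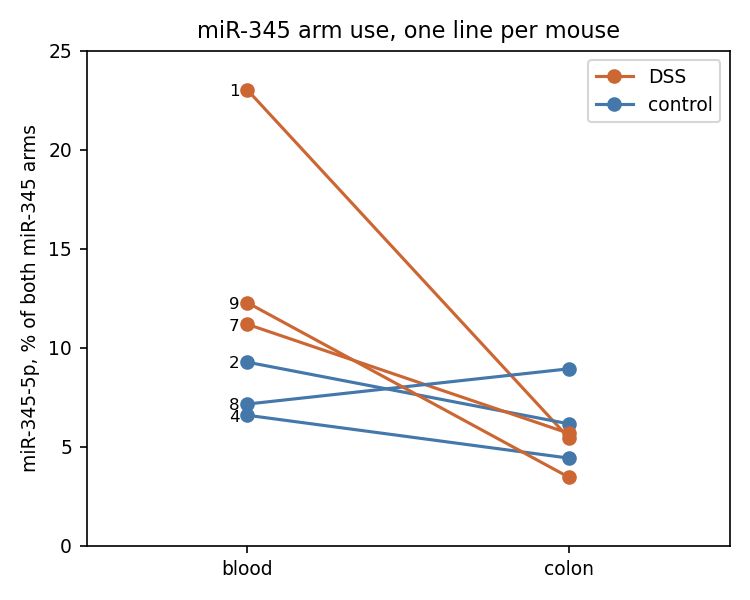
Share of miR-345-5p in the counts of both miR-345 strands, in percent, with 1 line for each mouse between its blood and colon library. The share is higher in blood in 5 mice, reaches 23.0% in mouse 1, and is higher in colon in control mouse 8.

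The other 2 hairpins gave almost only the 5p strand. The miR-149-5p share was at least 99.6% in blood and 99.4% to 99.8% in colon. The log2 ratio differed by -0.08 between the tissues (n = 6 each, exact permutation p = 0.861), with a sign that turns to 0.56 at a pseudocount of 0.5. The 3p strand had only 3 counts in all blood libraries, so there the ratio mostly restates the 5p level. Its mean in blood was 8.95 in DSS mice and 7.37 in controls, so it also holds the response that chose the member, and nothing is read from it. miR-1224-3p was counted 1 time in all 12 libraries, in the colon of control mouse 8, and was at 0 in blood, where 3 counts allow up to 0.0911 to 0.142 CPM. The log2 ratio of miR-1224 with a pseudocount of 1 differed by -6.18 between blood and colon in the same exact permutation test (p = 0.00216, the smallest it can give, adjusted 0.00649), but this only restates the level of the 5p strand over an empty 3p strand.

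Likeness across libraries varied among the members. For each hairpin's abundant strand, levels were centred within tissue on log2(CPM + 1) and compared with the other 679 tested miRNAs over the 12 libraries by Pearson's r, as a description, because the points share scaling and depth and still hold the DSS response that chose the members, which builds likeness between members in part. miR-149-5p was most like miR-6960-5p (r = 0.93), miR-185-3p (0.91) and miR-296-5p (0.89). miR-345-3p was most like miR-219a-1-3p (0.95), miR-3535 (0.93) and miR-1968-5p (0.92). miR-1224-5p was most like miR-148a-3p (0.84), miR-182-5p (0.83) and miR-182-3p (0.82). Between members the r was 0.75 for the miR-345 strands, 0.70 for miR-149-5p with miR-345-5p and 0.50 with miR-345-3p. For miR-1224-5p it was 0.69 with miR-345-5p, 0.61 with miR-345-3p and 0.23 with miR-149-5p. In blood miR-1224-5p had only 0 to 0.419 CPM, and it passed the filter only through colon, so nothing is read from its likeness. With each tissue scaled alone, an alternative chosen after seeing the data, miR-149-5p gave 0.52 with miR-345-5p and -0.00074 with miR-345-3p, and miR-185-3p (0.83), miR-3535 (0.98) and miR-187-3p (0.86) came first.

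GC content was examined since the members lie above the median of the tested miRNAs. Across the 484 miRNAs in blood the Pearson r between GC share and log2 fold change was 0.15 and Spearman's rho 0.14, and across 542 in colon they were -0.03 and -0.01. miRNAs are not independent replicates, so no p is given. In blood the median log2 fold change was -0.30 for the 52 miRNAs under 40% GC, of which 1 lay apart higher and 9 lower in DSS mice. It was -0.0018 for the 96 miRNAs of at least 60% GC, of which 10 lay apart higher, miR-149-5p among them, and 2 lower. At 40% to 50% GC 8 of 145 lay apart higher and 24 lower. At 50% to 60% these were 17 and 13 of 191, with miR-345-5p among the higher. Over all 484 miRNAs 7.44% lay apart higher and 9.92% lower. Without the 5 members the Pearson r in blood was 0.145. In colon 93 miRNAs of at least 60% GC had a median of 0.03, with 15 apart higher and 9 lower. The 93 under 40% had 0.04, with 24 and 15. Leaving out a mouse moved the r in blood between 0.0021 and 0.31, and the grouping of the labels turned it to -0.28. With the trend of each library on GC content taken out (GC correction), the blood responses were 1.38 for miR-149-5p, 1.38 for miR-345-5p and 0.09 for miR-345-3p. The blood minus colon responses were then 1.18, 2.30 and 0.58.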

How the data were processed

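The authors trimmed the small RNA reads, collapsed them, quantified mature miRNAs of miRBase with miRDeep2 and deposited raw counts. They also deposited, for each tissue, a normalized signal, the count divided by a DESeq2 size factor, which was used for an alternative and for sequences. The submitters' processing notes name GRCm38. No molecular identifiers are named in the sources used here, so depth bears on counting error only.

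Counts were fitted in R (4.3.3) with edgeR (4.0.16) by glmQLFit and glmQLFTest, with filterByExpr and TMM, in each tissue alone for the DSS response and over all 12 libraries for the tissue level and the difference of responses. The standard error is the log2 fold change over the root of F. DESeq2 (1.42.0) and limma (3.58.1) were alternatives. Arm ratios used log2 with a pseudocount of 1 and exact permutation. In simulated data with a log2 change of 2, 99.5% of 195 changed miRNAs were recovered among 473 in blood. In colon 92.2% of 193 among 517 were recovered, and for the tissue level 100% of 169 among 535. There were 6, 5 and 6 false calls, and none without a change. The simulated counts came from the fitted model itself, with changes of random sign in a part of the miRNAs. In the real tissue comparison 88.7% of miRNAs were called, so the recovery does not speak for the scaling of these data. A log2 change of 2 also exceeds the DSS responses fitted for the members in each tissue.

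The members and lists were chosen with earlier results of these data known. Named are the members, the other strands of their hairpins, miRNAs of the same seed, the 3 most alike by correlation, and miR-486a-5p and miR-143-3p as tissue checks with miR-451a (8806 to 18154 CPM in blood, 178 to 378 in colon) and miR-122-5p (7.22 to 199.6 and 6.26 to 78.6). Marker lists were checked for separation of all blood from all colon libraries. All 8 erythroid miRNAs were higher in blood. Higher in colon were all 9 of gut epithelium, 4 of smooth muscle, 2 of platelet and endothelium and 3 of enteroendocrine and neural. Of 4 lymphocyte miRNAs 2 were higher in colon, of 4 myeloid 1 was higher in each, and the 1 of liver overlapped. The same mouse gave both tissues, so numbers pair the samples, although correlations of same-mouse deviations were -0.33 to 0.17. miR-149-3p was left out of the called counts and, with miR-1224-5p, of the fitted blood values after its counts were seen.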

Additional observations from a re-analysis of the deposited data

How the results depend on the processing

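Of the alternatives, 265 values counted as the same, 30 moved, 10 lost a call, 3 gained one and 7 tested values turned. A tested value was the same if it kept its direction and side of the threshold. A fitted response was the same if it moved by less than the spread between replicates. The GC r was judged by the size of its move, and the number of members called by its ratio to the main number. So 2 called members in place of 3 counted as the same. With the untested values, 17 of 315 changed sign, 8 of them under the grouping of the labels. The replicate block gave a tissue difference of -2.10 for miR-149-5p and left 3 members called, miR-1224-5p included, and changed no other call than that of the arm ratios of miR-345 (1.05) and miR-1224 (-6.18). For miR-1224 all 6 mice agreed, and the sign-flip p was 0.0312, the smallest 6 mice can give, which adjustment over 3 hairpins takes past the limit (0.0938), so this lost call says nothing of the pairing. Between 2 and 4 members were called over the scalings and filters. The blood minus colon response was 0.99 for miR-149-5p and 0.36 for miR-345-3p with RLE, 1.01 and 0.37 with DESeq2, 1.09 and 0.48 with total counts, and 1.14 for miR-149-5p with totals without miR-486. The colon response with total counts was 0.54, -0.18 and -0.50 for miR-149-5p, miR-345-3p and miR-1224-5p, and 0.54, -0.18 and -0.49 with totals without miR-486. The tissue difference of miR-345-3p turned to 0.53 (upper quartile) and 0.78 (without miR-486), and that of miR-345-5p to -0.20 (total counts) and -0.038 (replicate block with GC correction). Under the grouping of the labels, miR-149-5p was -0.16 in blood, -0.22 in colon and 0.12 for the difference. miR-345-5p was 0.64, 0.18 and 0.57, miR-345-3p 0.39 in colon and -0.46, miR-1224-5p 0.25 in colon, and the GC r -0.28 in blood and 0.13 in colon. Leaving out a mouse gave 0.14 to 0.63 for the tissue difference of miR-345-5p, 1.04 to 1.74 for the miR-149-5p difference, 1.83 to 2.88 for miR-345-5p, 0.68 to 1.68 for its blood response, 0.0021 to 0.31 and -0.089 to 0.10 for the GC r, -0.38 to 0.22 for the miR-149 arm ratio and 0.79 to 1.33 for that of miR-345. The miR-149 arm ratio turned to 0.56 at a pseudocount of 0.5. The tissue difference of miR-345-5p passed with upper-quartile factors, without miR-486 and with at least 10 counts (0.97 to 1.94), and that of miR-345-3p was lost with RLE, at least 10 counts and without mouse 2 or 9 (-0.58 to -0.19). The median blood minus colon response over all tested miRNAs moved with the scaling too. It was 0.22 with TMM, -0.18 with RLE, -0.10 with total counts and -0.04 with totals without miR-486. The cause of the shifts in this section was not tested. Depth limits miR-149-3p and miR-1224-5p in blood to counting.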
